A study of Drosophila melanogaster with 12 samples.

Results

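The genes of the translation initiation factors (eIF) and elongation factors (eEF) were followed in mature egg chambers of Drosophila melanogaster. Members were the genes of the deposited linear RNA table whose symbol begins with eIF or eEF, which gave 41 of 5954 genes and 77 of 10162 transcripts, with no use of measured values. Of these, 34 are initiation and 7 elongation factor genes. The annotation holds 52 genes with such symbols. Of the other 11, eIF2A is listed under the symbol CG7414, whose transcripts added up to 149.8 at day 2 and 131 at day 12, and the remainder are not analysed here.

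The follicles were at stage 14, the last stage of oogenesis, and came from ovaries of Oregon R flies, a widely used wild-type stock; the labels name no transgene and no treatment. Linear RNA was sequenced at time points labelled day 2 and day 12, with 3 biological replicates per day. The labels do not say from what event the days are counted, nor how many females or follicles went into a library. The table gives 1 value per transcript and day, which its header assigns to 3 libraries together. No spread between libraries can therefore be given, neighbouring levels cannot be told apart by their error, and the depth is unknown. All values are in the authors' own unit, not stated to be FPKM or TPM. Levels of different genes are set side by side on the assumption that the values are per transcript length, as StringTie abundances are. For 18 members an annotated gene of the opposite strand overlaps the span, from a few bases to the whole span of eIF4G2; whether reads were counted by strand is not stated, so reads of such partners cannot be told apart.

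Initiation begins when eIF2, loaded with GTP and the initiator tRNA, joins eIF1, eIF1A and eIF3 on the small ribosomal subunit. The eIF4 factors bind the cap of the mRNA and unwind its leader, and eIF5, eIF5B and eIF6 govern the joining of the large subunit. In elongation, eEF1 brings charged tRNAs to the ribosome, eEF2 moves it along the mRNA, and eEF5 relieves slow peptide bonds. The mature Drosophila oocyte makes little new RNA, and its stored messages are translated with the help of these factors.

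The labelled tissue was checked against markers of its cell types. All 5 germline markers (osk, nos, bcd, CycB, vas) were measured, with a total of 3346 at day 2 against 3787 at day 12. The largest part of this total is CycB, at 1702 and 1900. The markers osk, nos and bcd were higher too, while vas was lower, at 76.3 and 71.3. Of 7 follicle cell markers, 5 were measured, with a total of 325 at day 2 against 103 at day 12. Most of the day 2 total is Cp15, at 254 and 20.8; Yp1, Yp2 and Yp3 were lower too, while Ilp8 was higher, at 50.1 and 80.1. None of the 5 markers of muscle sheath, hemocytes and fat body was among the genes measured here. The follicle cell markers thus did not share a direction. In such bulk RNA, fewer cells of a type and less RNA per cell cannot be told apart. The part of these markers' differences in the results below was not tested.

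The factor messages as a group held like shares of the listed RNA on both days. Their values summed to 14250 at day 2 and 14758 at day 12, which was 2.27% and 2.33% of the table total. That total was 628567 at day 2 and 634242 at day 12. If values are scaled to library size, as StringTie abundances are, a change of all messages per follicle would not show. The median log2 ratio of day 12 to day 2 was 0.064 over the 41 gene sums, beside 0.043 over all genes. The sum was higher at day 12 for 25 members and lower for 16, a share of 61.0% higher, where 58.5% of all genes were higher. Among the 481 genes with a mean of both days at or above that of the median member, 70.5% were higher. Their median log2 ratio was 0.079. For 32 of the 41 members, 78.0%, the log2 ratio lay within 0.2 of 0, where 69.7% of all genes and 81.3% of these 481 genes did. The members are abundant messages: the median member stood at 188 as a mean of both days, against 40.3 for all genes. Of the 41, 33 lay above the level of 40.3.

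**Figure D1:**
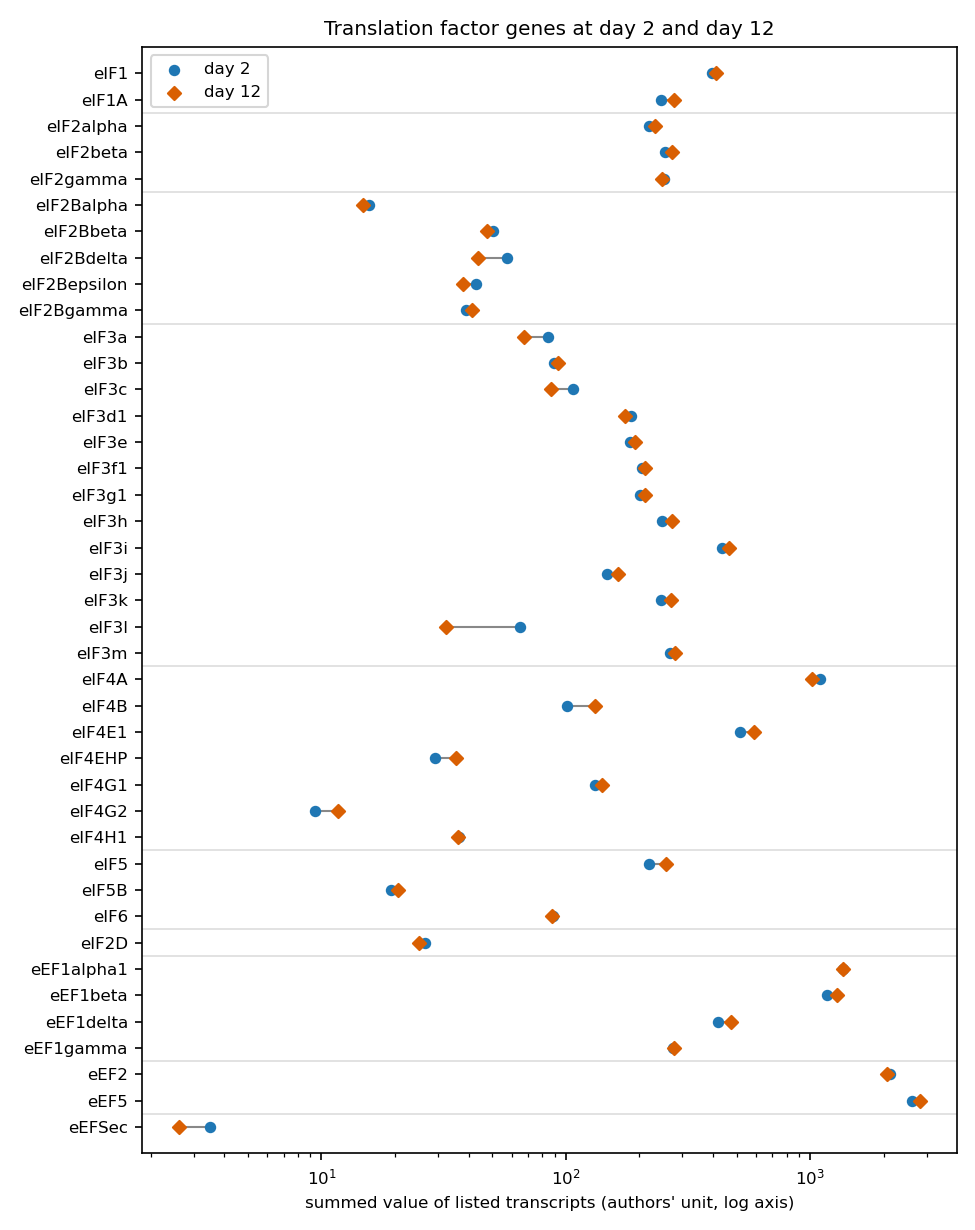
Summed value of the listed transcripts of each of the 41 genes, in the authors' unit on a log axis, at day 2 (circles) and day 12 (diamonds). Each point is the sum of the authors' values for 3 libraries together, and grey lines part the complexes. Most pairs nearly coincide, and the widest gap is that of eIF3l, at 64.9 and 32.4.

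Of the 77 member transcripts, 1 was called at an adjusted p under 0.05 over all listed transcripts from the authors' deposited table, where 0.177% of all transcripts were called and 0.0984% were called as higher at day 12. It was a transcript of eIF3l and was higher at day 12. A nominal p, that is one before adjustment, under 0.05 was given to 11 member transcripts of 10 genes, 14.3%, where 16% of all transcripts had one. Of the 11, 8 were higher and 3 lower at day 12, beside 9.47% of all transcripts higher and 6.56% lower at this p. This share is near that of the table as a whole, so the count is no result about the factors. By the most abundant transcript of each gene, 10 of 41 members had such a p, against 22.5% of all genes. Apart from eIF3l, the 9 transcripts with a low p differed by a median of 0.22 in log2 size, or 1.16-fold.

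**Figure D2:**
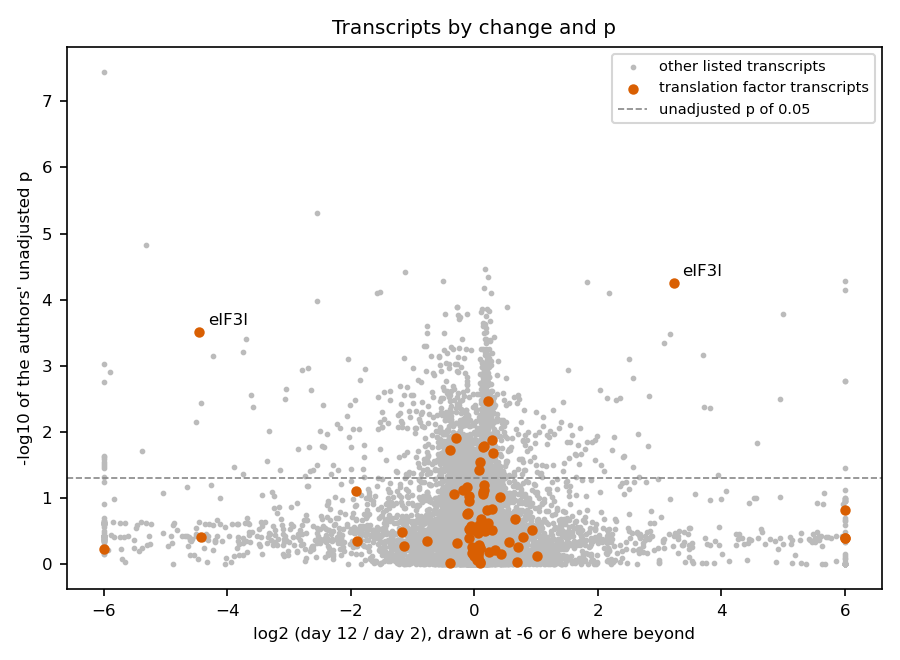
The log2 ratio of day 12 to day 2 (horizontal) against −log10 of the authors' nominal p (vertical) for member transcripts and all other listed transcripts with a value above 0 on both days; the dashed line marks a p of 0.05. Both eIF3l transcripts stand far from 0 with low p, while the other member transcripts above the line lie close to a ratio of 0.

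The large scaffold factor eIF3 was represented by 13 subunit genes, and its messages did not share a direction. The sums of 9 subunits were higher at day 12, by log2 ratios from 0.048 for eIF3f1 to 0.15 for eIF3j, and none of these 9 had a p under 0.05 from the authors' deposited table. The most abundant, eIF3i, a small subunit folded as a propeller of repeats, was at 437 at day 2 and 467 at day 12. The subunits eIF3m, eIF3k and eIF3h followed at 267, 246 and 246 at day 2. The median subunit stood at 185 at day 2 and 192 at day 12.

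The 4 subunits with lower sums were eIF3a, eIF3c, eIF3d1 and eIF3l. The core subunit eIF3c, which contacts eIF1 and eIF5 in yeast, was at 107 at day 2 and 86.6 at day 12, a log2 ratio of -0.30 (nominal p = 0.0122, adjusted p = 0.184 from the authors' deposited table). The largest core subunit, eIF3a, was at 84.4 and 67.3, with a nominal p of 0.0873 from the authors' deposited table. The third core subunit, eIF3b, did not share this direction, at 89.1 and 92.6. For eIF3d1, known in human cells as a cap-binding subunit, the values were 185 and 174.

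eIF3l, a peripheral subunit, had the one large difference. Its gene lies on chromosome arm 3L from 12143446 to 12146097 on the minus strand, overlaps no other annotated gene, and has 1 annotated transcript, of 4 exons and 539 codons. That transcript, FBtr0076022, went from 61.7 at day 2 to 2.82 at day 12, a log2 ratio of -4.45 (nominal p = 0.000303, adjusted p = 0.0724 from the authors' deposited table). A second transcript assembled by the authors rose from 3.15 to 29.6, a log2 ratio of 3.23 (adjusted p = 0.0454 from the authors' deposited table). The annotated form thus made up 95.1% of the gene sum at day 2 and 8.70% at day 12. The sum went from 64.9 to 32.4, a log2 ratio of -1.001, with no test behind the sum. At day 2 eIF3l was the least abundant of the 13 subunits, with the highest 6.73 times its level; at day 12 the highest stood at 14.4 times. The structure of the assembled transcript is not given in the table, so what part of the coding sequence it holds is unknown. Among members with a mean sum of at least 10, eIF3l was the 1 of 40 whose sum differed at least 1.5-fold, where 2.78% of all such genes did.

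Start codon scanning and tRNA delivery factors were slightly higher or level. eIF1A, which with eIF1 keeps the small subunit open while it scans, was at 204 at day 2 and 227 at day 12 by its main transcript (log2 ratio 0.15, nominal p = 0.0162 from the authors' deposited table). eIF1 was at 397 and 410, with a nominal p of 0.691 from the authors' deposited table. The 3 subunits of eIF2 stood close together, from 219 to 254 at day 2 and from 233 to 273 at day 12. eIF2alpha, whose phosphorylation under stress lowers initiation, was at 219 and 233 (log2 ratio 0.087, nominal p = 0.0282 from the authors' deposited table). eIF2beta summed to 254 and 273. The GTP-binding subunit eIF2gamma was at 252 and 246. Its gene shares 3595 bp of its span with Su(var)3-9, a histone methyltransferase gene on the same strand, so reads of the shared part cannot be assigned with certainty. Su(var)3-9 was at 39.6 and 39.1.

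eIF2B, which recharges eIF2 with GTP, had the largest share of lower members among the complexes with several genes. Of its 5 subunits 4 were lower at day 12, with a median log2 ratio of -0.093. eIF2Bdelta, a regulatory subunit that senses phosphorylated eIF2alpha, went from 57.4 to 43.9, a log2 ratio of -0.39 (nominal p = 0.0188, adjusted p = 0.213 from the authors' deposited table). This is the 1 transcript listed for the gene and was assembled by the authors. The catalytic subunit eIF2Bepsilon was at 42.9 and 37.9, with a nominal p of 0.0763 from the authors' deposited table. eIF2Bbeta was at 50.6 and 47.4, eIF2Balpha at 15.7 and 14.8, and eIF2Bgamma at 39.0 and 41.4. The median eIF2 subunit stood 5.88 times above the median eIF2B subunit at day 2 and 5.95 times at day 12. Whether eIF2B differed from the other complexes was not tested.

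**Figure D3:**
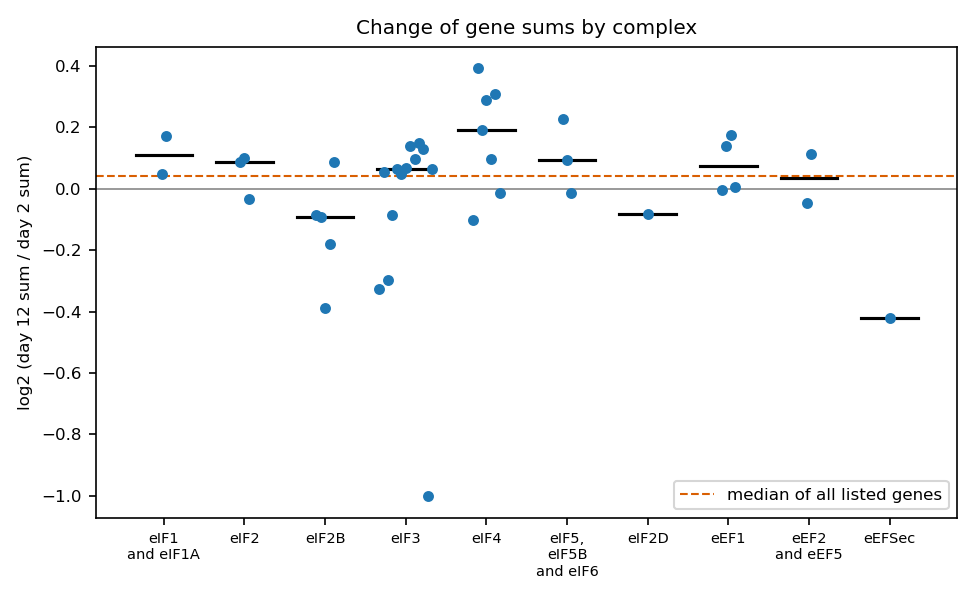
Log2 ratio of the day 12 to the day 2 gene sum for each of the 41 genes (points) by complex, with the median of each complex (black bars) and of all listed genes (dashed line, 0.043). Most eIF2B subunits lie below 0, most eIF4 factors above it, and eIF3l stands alone at -1.001.

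Of the 7 cap-binding and unwinding factors, 5 had higher and 2 lower sums. The helicase eIF4A was the most abundant initiation factor message, at 1092 and 1019. Its main transcript had a nominal p of 0.0667 from the authors' deposited table. The cap-binding protein eIF4E1 summed to 517 and 590. The scaffold eIF4G1, which joins eIF4E and eIF4A, summed to 131 and 140, and its annotated transcript was at 105 and 111 (log2 ratio 0.074, nominal p = 0.0375 from the authors' deposited table). The sum of eIF4A was thus 8.32 times that of eIF4G1 at day 2 and 7.27 times at day 12.

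eIF4EHP, a cap-binding protein that cannot bind eIF4G and represses caudal and hunchback messages in the Drosophila embryo, was at 29.2 and 35.7 (log2 ratio 0.29, nominal p = 0.0133, adjusted p = 0.188 from the authors' deposited table). Syx1A lies within the long span of eIF4EHP on the same strand, and was at 6.26 and 7.16. The sum of eIF4E1 was 17.7 times that of eIF4EHP at day 2 and 16.6 times at day 12. eIF4G2, a scaffold known for its role in male meiosis in flies, was at 9.43 and 11.7 (log2 ratio 0.31, nominal p = 0.0205 from the authors' deposited table). The whole of its span lies within CG33111 on the same strand, which was at 13.2 and 7.92, and CG34355 of the opposite strand, not analysed here, covers it as well along 10953 bp. The split of reads among these genes is uncertain. The helicase helpers eIF4B and eIF4H1 summed to 101 and 132, and to 36.5 and 36.2. The largest rise of a single eIF4B transcript was that of 1 assembled form, at 0 and 28.8 (nominal p = 0.999 from the authors' deposited table). All 6 assembled eIF4B transcripts together summed to 19.6 and 40.8. The annotated eIF4B transcripts summed to 81.1 and 91.3.

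Among the factors of subunit joining, eIF5, which triggers GTP hydrolysis by eIF2, had the lowest p after eIF3l. Its main transcript, assembled by the authors, was at 204 and 237 (log2 ratio 0.22, nominal p = 0.00340, adjusted p = 0.132 from the authors' deposited table), and held 93.3% and 92.7% of the gene sum. CG46312, not analysed here, shares 4809 bp of the eIF5 span on the same strand. eIF5B, the GTPase that joins the subunits, summed to 19.2 and 20.5. eIF6, which holds the large subunit back, was at 88.6 and 87.9; its gene lies wholly within ytr on the same strand, at 26.9 and 32.6. eIF2D, which can deliver tRNA without eIF2, was at 26.4 and 25.0.

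The highest levels of all members were those of the elongation factors eEF5, eEF2, eEF1alpha1 and eEF1beta, while eEF1delta, eEF1gamma and eEFSec lay below eIF4A. Apart from eEFSec, the log2 ratios of elongation factors lay between -0.045 and 0.18. The most abundant member was eEF5, formerly named eIF5A, which summed to 2597 at day 2 and 2812 at day 12. The translocase eEF2 was at 2123 and 2059. Of the eEF1 subunits, eEF1alpha1, the carrier of charged tRNA, summed to 1362 and 1358. Its exchange factor subunit eEF1beta was at 1167 and 1285 (log2 ratio 0.14, nominal p = 0.0167, adjusted p = 0.204 from the authors' deposited table). The companion subunits eEF1delta and eEF1gamma summed to 418 and 472, and to 275 and 276. eEF1beta was the 1 elongation factor with a nominal p under 0.05. At the other end, eEFSec, the carrier of selenocysteine tRNA, summed to 3.51 and 2.63, the lowest of all members.

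Values moved more between the transcripts of a gene than in its sum. Of the 77 transcripts, 14 in 7 genes differed at least 2-fold, 18.2% where 18.1% of all transcripts did. Of the gene sums, 1 of 41 did, where 2.64% of all genes did. Of the 14, only the 2 of eIF3l had a nominal p under 0.05 from the authors' deposited table. Among 15 members with several listed transcripts, a transcript's share of the sum moved by at least 30 percentage points in 2, eIF3l and the lowly expressed eEFSec, where 11.9% of all such genes showed this. In eEFSec the annotated transcript held 74.5% of the sum at day 2 and 44.1% at day 12, with a nominal p of 0.323 from the authors' deposited table.

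eIF4B had the most listed transcripts, 10, of which 6 were assembled by the authors. One of these, TCONS_00009267, was listed at 0 at day 2 and at 28.8 at day 12 (nominal p = 0.999 from the authors' deposited table). The annotated form of 459 codons was at 42.1 and 56.5, and the form of 389 codons at 22.3 and 20.6. In eIF4E1, 4 annotated transcripts share a coding sequence of 259 codons and differ in the leader; together they held 90.1% of the sum at day 2 and 87.9% at day 12. The form of 248 codons held 9.87% and 9.24%. An assembled eIF4E1 transcript was at 0.221 and 16.7, with a nominal p of 0.152 from the authors' deposited table. In eEF1delta the forms of 256 and 229 codons kept nearly the same proportion, with 71.2% and 70.5% of the sum in the longer.

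**Figure D4:**
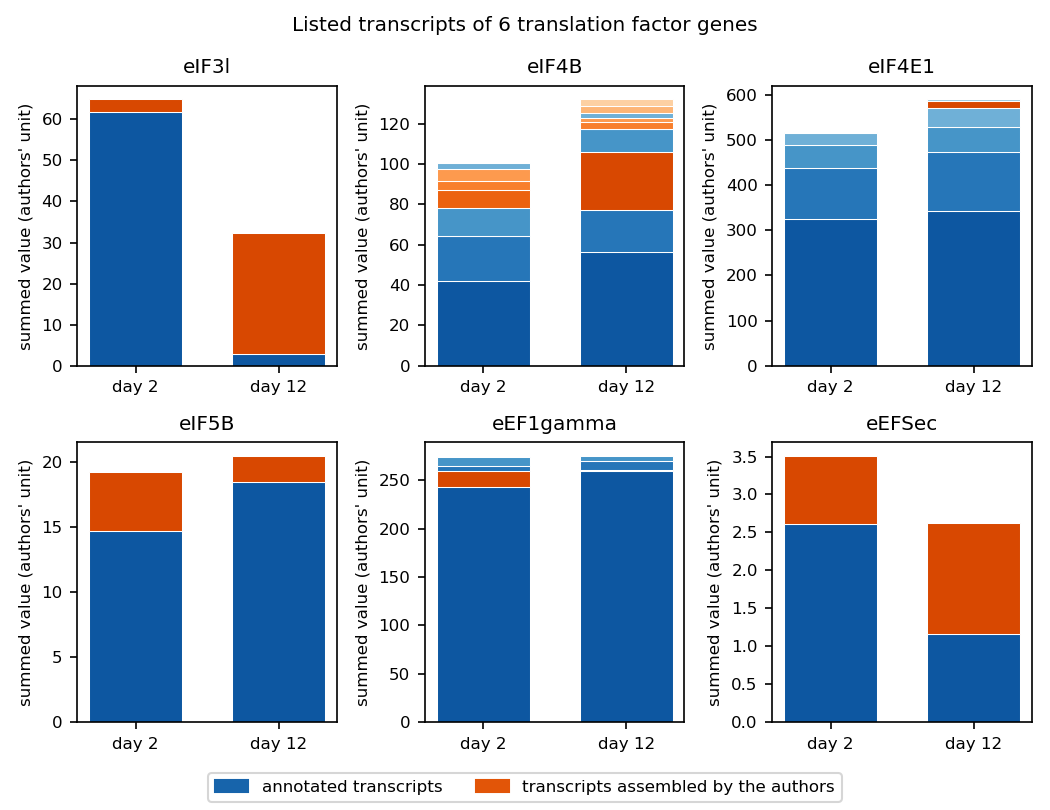
Stacked values of the listed transcripts of 6 genes at day 2 and day 12, in the authors' unit, with annotated transcripts in blue and assembled ones in orange. Each segment is the authors' value for 3 libraries together. In eIF3l the annotated transcript goes from 61.7 to 2.82 and the assembled one takes 91.3% of the sum at day 12, while in eIF4E1 and eEF1gamma the largest annotated transcript stays the largest.

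Direction went along with coding length. This was looked at after the values were seen, with the longest annotated coding sequence of each gene. Of 13 members of 500 codons or more, 9 had lower sums at day 12, with a median log2 ratio of -0.087. Of 28 shorter members, 7 did, with a median of 0.087. The same division of all genes with a mean sum of at least 10 gave lower sums for 54.9% of 2176 long genes and 27.3% of 2994 short ones. Spearman's rho of coding length with the log2 ratio was -0.43 across the 41 members and -0.30 across 5716 genes. Across the 13 eIF3 subunits it was -0.77, and -0.79 without eIF3l; these genes share libraries and are not independent. eIF3a and eIF3c, of 1140 and 910 codons, are the longest eIF3 subunits, and eIF2Bdelta and eIF2Bepsilon, of 626 and 669, the longest of eIF2B. The 4 long members with higher sums were eIF4G1 and eIF4G2, of 1919 and 2072 codons, eIF5B, of 1144, and the eIF3 subunit eIF3b, of 690. The part of length in the differences of single factors was not tested.

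**Figure D5:**
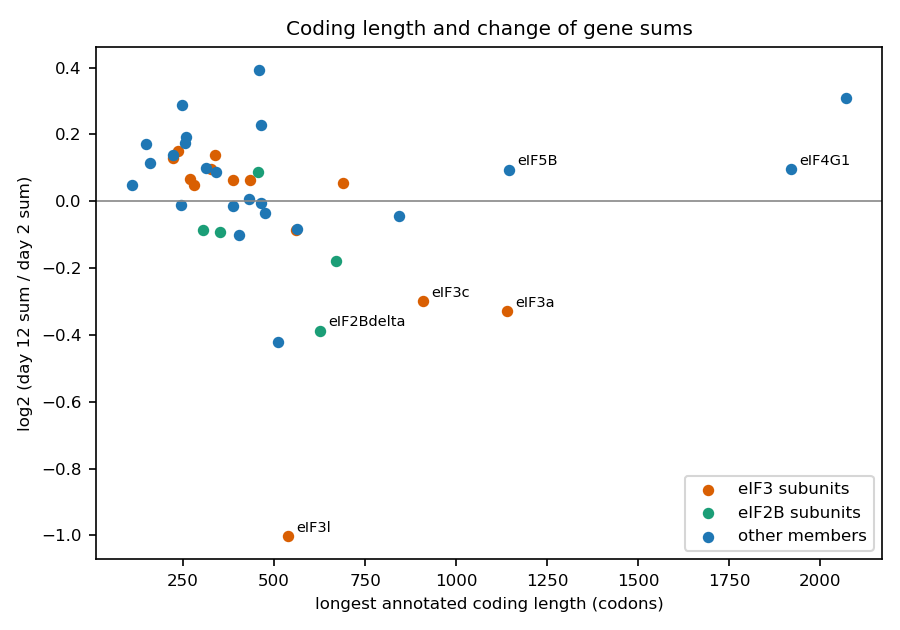
Longest annotated coding length in codons (horizontal) against the log2 ratio of the day 12 to the day 2 gene sum (vertical) for the 41 genes, with eIF3 and eIF2B subunits coloured. Long subunits such as eIF3a and eIF3c lie below 0, most genes under 500 codons lie above it, and eIF4G1, eIF4G2, eIF5B and eIF3b are the genes of 500 codons or more that lie above it.

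Other genes of translation, mitochondrial factors among them, had a median ratio near that of the members and of all genes. Of 30 genes in 3 lists, 27 were measured, and Thor, Dhps and mRRF2 are not analysed here. Of the 27, 19 had higher and 8 lower sums at day 12. The median log2 ratio was 0.072, beside 0.064 over the members and 0.043 over all genes. Single ratios ranged from -0.48 for HBS1 to 0.23 for Paip2. By the most abundant transcript, 5 were higher and 1 lower at a nominal p under 0.05 from the authors' deposited table, where 13.5% and 9.07% of all genes were. None was called, the lowest adjusted p being 0.154 from the authors' deposited table. Among 12 partners and regulators, Paip2, an inhibitor of the poly(A)-binding protein, was at 118 and 138 (nominal p = 0.00593 from the authors' deposited table), and pAbp itself summed to 516 and 586. crc, the ATF4 homologue whose translation rises when eIF2alpha is phosphorylated, was at 161 and 176 (nominal p = 0.0421 from the authors' deposited table). Of the 12, 4 had lower sums at day 12. NAT1 summed to 108 and 87.5. cup was at 34.5 and 28.9 (nominal p = 0.0884 from the authors' deposited table). The eIF2alpha kinases PEK and Gcn2 summed to 67.9 and 65.7, and to 15.7 and 14.9.

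Of 8 genes of release, rescue and recycling, Clbn, of ribosome quality control, was at 59.9 and 66.7 (nominal p = 0.00607 from the authors' deposited table). The main transcript of HBS1, which with pelo frees stalled ribosomes, was at 8.17 and 18.2 (nominal p = 0.0324 from the authors' deposited table), while its sum went the other way, from 25.4 to 18.2. The release factors eRF1 and eRF3 summed to 68.4 and 78.3, and to 100.2 and 103. Of 7 measured mitochondrial factors, mEFTu1, the mitochondrial carrier of charged tRNA, summed to 97.6 and 72.7, and its main transcript had a nominal p of 0.0238 from the authors' deposited table. Its partner mEFTs was at 63.0 and 66.6 (nominal p = 0.00590 from the authors' deposited table). The remaining 21 of the 27 genes had a p of 0.05 or above by their most abundant transcript.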

How the data were processed

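Build dm6 and the tools STAR, HISAT2, StringTie and DESeq2 are named, per the submitters' processing notes, without version or role. The signal values the authors deposited are transcript abundances, 1 per day, assigned by the file header to 3 libraries together. The p-values and adjusted p-values are those the authors deposited; which test gave them is not stated in the labels or headers, and the adjustment was checked to equal Benjamini-Hochberg over the 10162 listed transcripts. The direction of each p was read from the 2 deposited values. From these values, sums over the listed transcripts of a gene, their log2 ratio with no pseudocount, and shares of transcripts were computed with Python 3.11.15, numpy 2.4.6, pandas 2.3.3 and scipy 1.17.1, after a test on simulated data. Sums cover listed transcripts only, and the higher value of each was at least 0.683. No replicate test of the sums was possible, and precision per library is unknown.

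Coordinates and coding lengths come from Ensembl release 115 of BDGP6, whose coordinates are those of dm6; all 61 annotated member transcripts were found there, and the other 16 were assembled by the authors. Genes were named by rule: a called transcript, a main transcript with an unadjusted p under 0.05, the highest sum of a complex, a 1.5-fold sum, or a share moved by 30 points. The rest are given by value so that every member is accounted for. The members, lists and rules were chosen with earlier results of these data known. The circRNA table names no host genes and was not used. Alternatives tried were the main (most abundant) transcript instead of the sum, a pseudocount of 1, a mean of at least 10, other scalings, annotated transcripts only, and other thresholds.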

Additional observations from a re-analysis of the deposited data

How the results depend on the processing

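The median log2 ratio of the 41 gene sums lay between 0.020, with ratios centred on the median of all genes, and 0.064 under every alternative listed under the processing, and 24 or 25 members were higher. Without eIF3l, a choice made after seeing the data, it was 0.064. The median of the eIF4 factors was 0.075 with the most abundant transcript, against 0.19. That of eIF5, eIF5B and eIF6 was 0.22 with the most abundant transcript and 0.33 with annotated transcripts only, against 0.095. That of eEFSec was -1.18 with either of these and -0.32 with a pseudocount of 1, against -0.42. The log2 ratio of eIF3l was -4.45 with the annotated transcript in place of the sum of both. At an adjusted p under 0.1, 2 member transcripts were called, both of eIF3l, and with transcripts of a mean of at least 10 adjusted again, 1 was, at an adjusted p of 0.0422. At an nominal p under 0.01 there were 3 in place of 11. With annotated transcripts only, 0 members had a share moved by 30 points in place of 2. This was fixed in advance for eIF3l and eEFSec, which each keep 1 transcript and so a constant share. The cause of the other shifts was not tested. Of 106 alternatives for the 18 genes named by rule, 6 moved a log2 ratio by over 0.05, those of eIF3l, eEFSec and eIF5. The direction of a gene with a low p was reversed in 0. Many of the 106 could not move a ratio so far. Centring shifts every ratio by 0.043 and scaling to table totals by less, and the mean filter leaves each kept ratio as it was. For genes with 1 listed transcript the main transcript equals the sum. The small number of moves is therefore no measure of robustness. No paired analysis was possible because the table holds no values of single libraries, and leaving out a replicate was not possible for the same reason. The depth behind low values, such as those of eEFSec, is unknown.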
